A study of Mus musculus with 9 samples.

Results

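The 10 genes described here encode Toll-like receptors and their lipopolysaccharide co-receptors in mouse primary macrophages. They are Cd14, Ly96, Tlr1, Tlr2, Tlr4, Tlr6, Tlr7, Tlr8, Tlr9 and Tlr13, taken by symbol through their Ensembl identifiers, 10 of 34866 genes in the tables. RNA sequencing of cultured macrophages gave 9 libraries in 3 groups of 3 biological replicates. Cells of the standard oxygen group stayed in that oxygen for 7 days. Those of the acute hypoxia group were first in standard oxygen and then held for 3 hours in 1% oxygen. Those of the chronic hypoxia group spent 7 days in 1% oxygen. No genetic change is labelled for any group, and all cells grew in alpha-MEM with serum and L929-conditioned medium, which comes from fibroblasts and supplies macrophage growth factor. The labels do not name the strain, the age of the mice or the tissue the cells came from.

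Toll-like receptors are transmembrane proteins with which macrophages recognise conserved molecules of microbes. CD14 collects lipopolysaccharide and passes it to the complex of TLR4 and MD-2, the product of Ly96, while TLR2 pairs with TLR1 or TLR6 to recognise bacterial lipopeptides. TLR7, TLR8, TLR9 and TLR13 sit in endosomes and recognise nucleic acids, and all of these receptors signal through the adaptor MyD88 to NF-kappaB and the cytokine genes it switches on.

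Expression is given as TPM, a share of all transcripts in a library that takes gene length into account, so levels can be compared between genes. TPM keeps no sequencing depth, and the depth of the libraries is therefore unknown. The libraries held 10724 to 11208 genes at 1 TPM or more. All 8 macrophage markers (1 of them Cd14) were detected, with sums of 56607 to 74792 TPM. The sum of 8 hypoxia-induced genes used to check the labels was between 351 and 482 TPM in standard oxygen, between 1278 and 2176 TPM in acute hypoxia and between 1787 and 1867 TPM in chronic hypoxia. Samples of different groups share digits in their descriptions, called sample codes X, Y and Z here. What the digits mark is not stated. The 3 libraries of code Z, 1 in each group, stood apart from the others: the SD over 7107 genes of the log2 difference within a group was 0.29 to 0.34 between codes X and Y and 0.50 to 0.62 with code Z. A list of 3 monocyte markers (Ly6c2, Ccr2 and Vcan) summed to 198 to 979 TPM in code Z and to 43.4 to 80.4 TPM in codes X and Y. By group, these sums were between 46.3 and 246 TPM in standard oxygen, between 43.4 and 198 TPM in acute hypoxia and between 61.7 and 979 TPM in chronic hypoxia. What these sums reflect, and their part in the results below, was not tested. In bulk samples, fewer cells of a type and less RNA per cell cannot be told apart.

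All 10 genes were expressed in every group and passed the filter for testing (a mean of at least 1 TPM over the 6 samples compared). Cd14 was the most abundant in each group, with a mean of 1070 ± 268 TPM in standard oxygen, 1401 ± 140 TPM in acute hypoxia and 758 ± 57.0 TPM in chronic hypoxia (SD, n = 3). Tlr13 came second, then Tlr8 and Tlr7, the endosomal receptors for RNA. In standard oxygen, the order went on with Tlr2, Tlr4, Ly96, Tlr9, Tlr6 and Tlr1. The neighbours Tlr8 and Tlr7, Tlr7 and Tlr2, Tlr2 and Tlr4, and Tlr9 and Tlr6 overlapped in their ranges over samples there. In both hypoxia groups the same order of means held except that Tlr6 stood above Tlr9, with no overlap between the ranges of Tlr6 and Tlr9. The neighbours Tlr8 and Tlr7, and Tlr7 and Tlr2, overlapped in both hypoxia groups. In chronic hypoxia Tlr13 and Tlr8, and Tlr4 and Ly96, overlapped too. Within the library of code Z, a label explained above, Tlr2 was above Tlr7 in every group. Tlr1, the lowest in every group, had means of 3.85 ± 0.701 TPM, 2.60 ± 1.5005 TPM and 3.71 ± 0.558 TPM in standard oxygen, acute hypoxia and chronic hypoxia (SD, n = 3). On GRCm38, the surface receptor genes span chr3:83836272-83841767 (Tlr2, minus strand), chr4:66827584-66930284 (Tlr4, plus), chr5:64924679-64933563 (Tlr1, minus) and chr5:64952031-64960097 (Tlr6, minus), and Ly96 spans chr1:16688051-16709611 (plus). The endosomal receptor genes span chr9:106222598-106226883 (Tlr9, plus), chrX:106143204-106160493 (Tlr13, plus), chrX:167242696-167264329 (Tlr8, minus) and chrX:167304929-167330558 (Tlr7, minus).

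**Figure D1:**
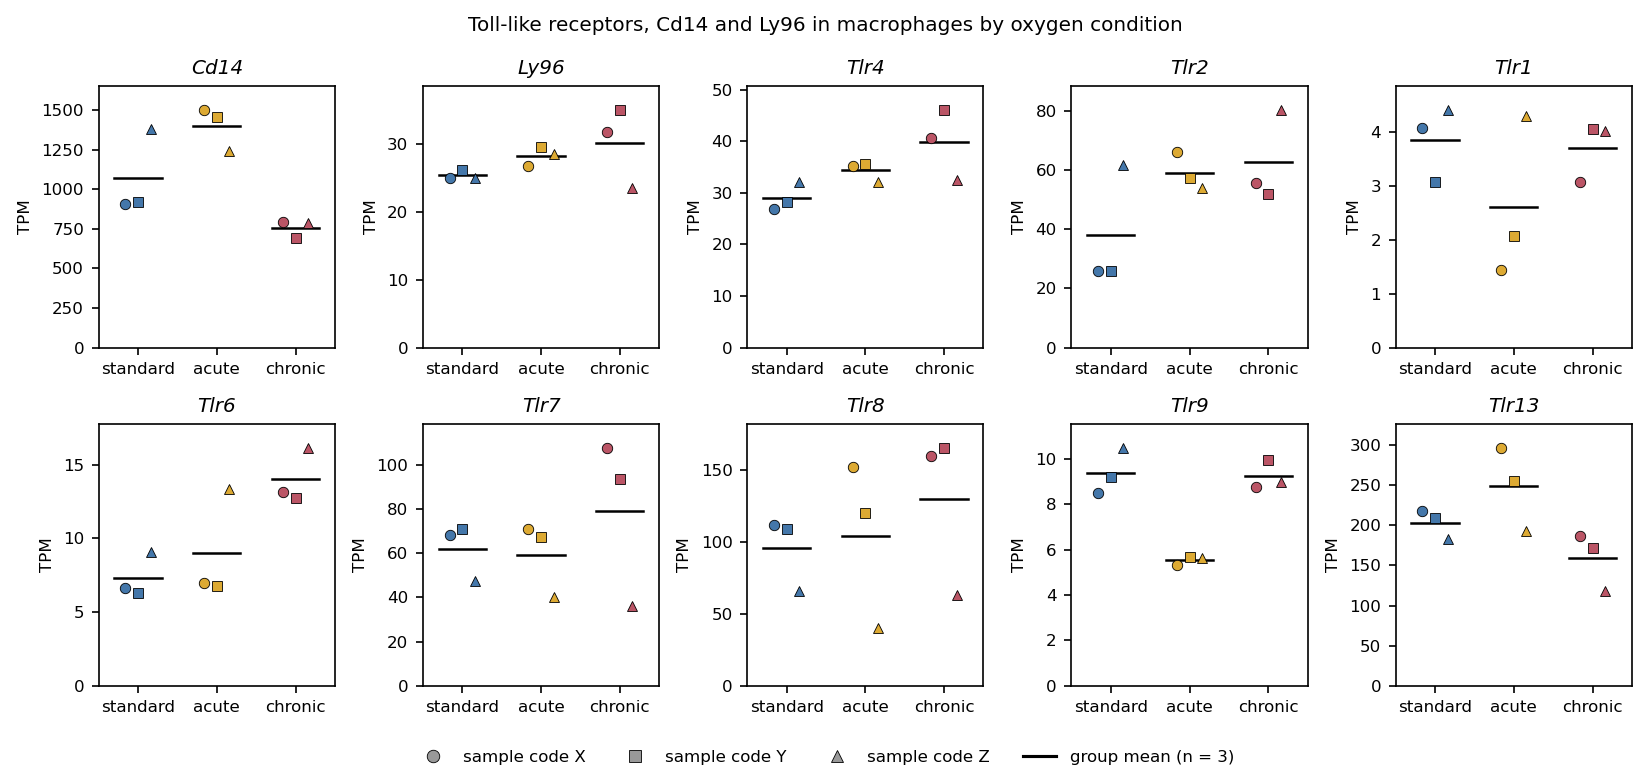
TPM of each of the 10 genes (vertical axes from 0) in standard oxygen, acute hypoxia and chronic hypoxia, with 1 point per library, the marker shape giving the sample code and the line the mean of 3. Cd14 lies between 692 and 794 TPM in the chronic libraries and at 908 TPM or more in all others, and code Z lies apart from X and Y for Tlr7 and Tlr8.

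Each pair of groups was compared with limma on log2(TPM + 1) over all genes, and a gene was called changed at a Benjamini-Hochberg adjusted p under 0.05. Fold changes are on this scale, log2(TPM + 1), and it understates changes of low genes. Between acute hypoxia and standard oxygen, 0 of the 10 genes were called, where 0.0273% of all genes tested were. An unadjusted limma p under 0.05 was found there for 1 of the 10, and for 785 of 10987 genes tested. Between chronic hypoxia and standard oxygen, 0 of 10 were called, where 2.69% of all genes were. The unadjusted p was under 0.05 there for 3 of the 10, and for 2533 of 11067 genes tested. Between chronic and acute hypoxia, 1 of 10 was called, Cd14, where 0.695% of all genes were. With the sample code as a block, limma called 0, 2 and 4 of the 10 genes in these comparisons, in the same order, against 0.71%, 18.4% and 15.5% of all genes. The 2 calls between chronic hypoxia and standard oxygen were Tlr2 and Tlr6, both higher, and the 4 calls between chronic and acute hypoxia were Tlr6 and Tlr9, higher, and Cd14 and Tlr13, lower. Without the 3 libraries of code Z, which leaves 2 samples a group, limma called 2, 6 and 5 of the 10 genes against 2.95%, 21.1% and 16.3% of all genes.

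The median log2 fold change of the 10 genes was 0.19 for acute hypoxia against standard oxygen, 0.22 for chronic hypoxia against standard oxygen and 0.25 for chronic against acute hypoxia. The medians over all genes tested were 0.01, 0.16 and 0.14. Over all genes, 232 rose and 66 fell in chronic hypoxia against standard oxygen, and 61 rose and 16 fell against acute hypoxia. After median-of-ratios rescaling of the libraries, which took the medians of all genes to within 0.01 of 0, these splits were 115 and 119, and 33 and 48. The 3 comparisons share their groups in pairs, so a gene's values in them are not independent of each other.

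**Figure D2:**
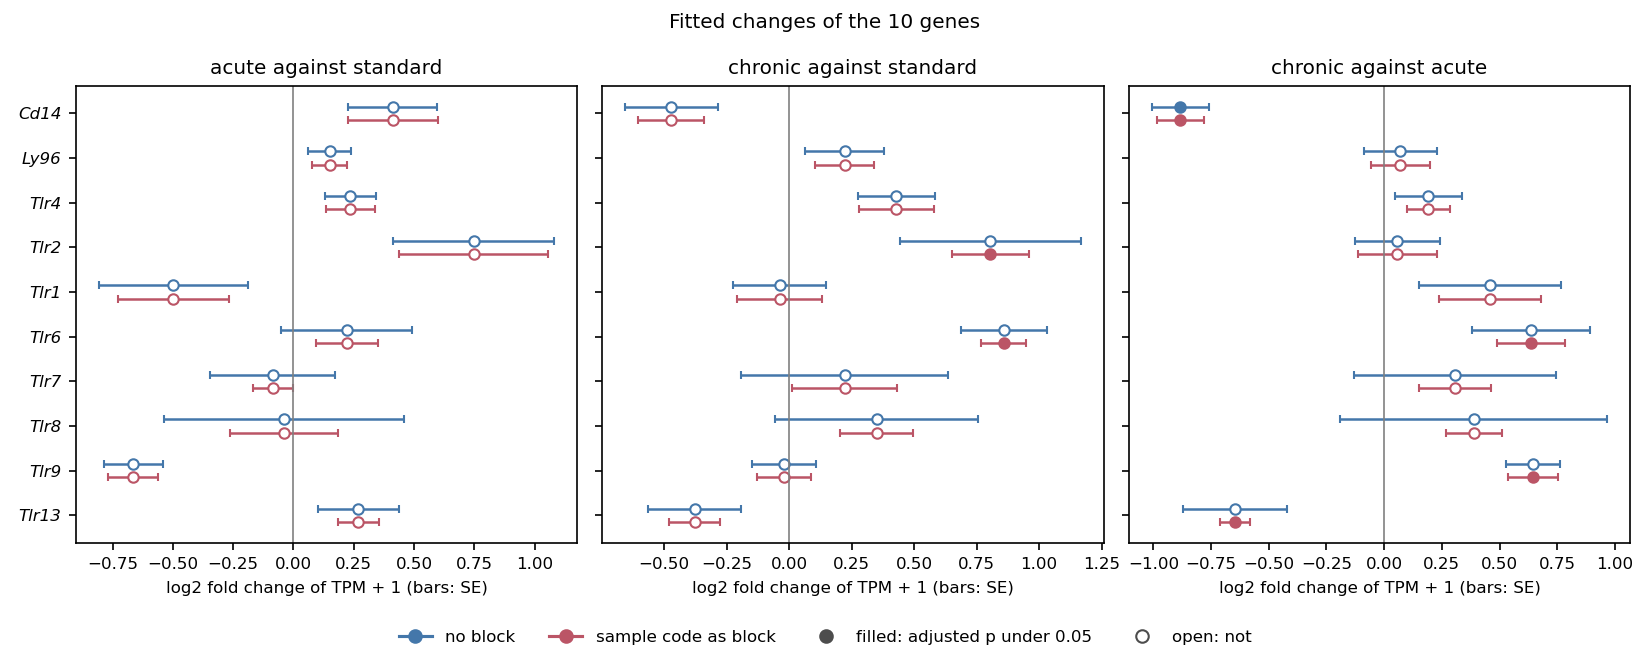
Log2 fold changes of the 10 genes in the 3 comparisons (horizontal axes, log2 of TPM + 1, bars are standard errors from limma), without a block and with the sample code as a block. Filled points had an adjusted p under 0.05: Cd14 alone without a block, and with the block Tlr2 and Tlr6 in the middle panel and Cd14, Tlr13, Tlr6 and Tlr9 in the right panel.

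Cd14, the co-receptor that hands lipopolysaccharide to TLR4, was lower in chronic than in acute hypoxia. In the order of codes X, Y and Z, used throughout, Cd14 was at 908, 922 and 1379 TPM in standard oxygen, at 1504, 1457 and 1241 TPM in acute hypoxia and at 794, 692 and 788 TPM in chronic hypoxia. All chronic libraries lay below every acute and every standard library, and the acute and standard ranges overlapped through the code Z libraries. Between chronic and acute hypoxia Cd14 fell by 0.88 on the log2 scale (SE 0.12, limma adjusted p = 0.049), to 0.541 of the acute mean, and it was lower in 3 of 3 codes. With the code block, the adjusted p in limma was 0.013. The call without a block was lost on leaving out any 1 of the libraries of codes X and Y (limma adjusted p 0.16 to 0.24), and it held without either library of code Z. It was also lost in limma with no filter on low values (adjusted p = 0.10) or without the intensity trend (adjusted p = 0.057).

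Against standard oxygen, Cd14 was not called in either hypoxia group. Its log2 fold change in chronic hypoxia was -0.47 (SE 0.18, limma adjusted p = 0.198), lower in 3 of 3 codes. With the code block and rescaling together, limma called it lower (log2 fold change -0.65, adjusted p = 0.044). In acute hypoxia Cd14 was 1.66 times as high in code X, 1.58 times in code Y and 0.900 times in code Z. The log2 fold change was 0.41 (SE 0.19, limma adjusted p = 0.743). Without the code Z libraries Cd14 was called higher in acute hypoxia (0.69, limma adjusted p = 0.013). The gene lies on chromosome 18, minus strand (GRCm38). None of the 10 genes shares exonic positions with another annotated gene.

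Tlr4 and Ly96 encode the lipopolysaccharide receptor itself. Tlr4 was at 26.8, 28.3 and 32.1 TPM in standard oxygen, at 35.2, 35.6 and 32.2 TPM in acute hypoxia and at 40.7, 46.1 and 32.5 TPM in chronic hypoxia. Both hypoxia groups lay above standard oxygen without overlap, the code Z libraries by the least, and the acute and chronic ranges overlapped. The log2 fold changes were 0.24 (SE 0.105) in acute and 0.43 (SE 0.15) in chronic hypoxia, with limma adjusted p of 0.735 and 0.167. Without code Z the chronic value was called (limma adjusted p under 0.05 with 2 samples a group). Ly96 was at 25.05, 26.23 and 24.98 TPM in standard oxygen, at 26.8, 29.6 and 28.6 TPM in acute hypoxia and at 31.9, 35.1 and 23.6 TPM in chronic hypoxia. The acute libraries lay above the standard ones without overlap by a small margin, and the chronic library of code Z was the lowest of all 9. No comparison of Ly96 was called without a block (limma adjusted p 0.445 to 0.881). Without code Z, Ly96 was called higher in chronic hypoxia against standard oxygen.

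The ratio of 2 genes within a library does not depend on how libraries are scaled to each other. Cd14 per Tlr4 was 33.9, 32.6 and 43.0 in standard oxygen, 42.7, 40.9 and 38.6 in acute hypoxia and 19.5, 15.02 and 24.3 in chronic hypoxia. Every chronic ratio lay below every other, and the standard and acute ratios overlapped. The chronic mean of 19.6 ± 4.63 compared with 36.5 ± 5.66 in standard oxygen and 40.7 ± 2.05 in acute hypoxia (SD, n = 3). For each difference the two-sided exact permutation test gave p = 0.1, the smallest that 3 samples against 3 can give, and 0.45 after Benjamini-Hochberg adjustment over the 18 ratio tests made. Ly96 per Tlr4 had means of 0.880 ± 0.0883, 0.827 ± 0.0643 and 0.757 ± 0.0282 (SD, n = 3), with overlapping ranges.

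**Figure D3:**
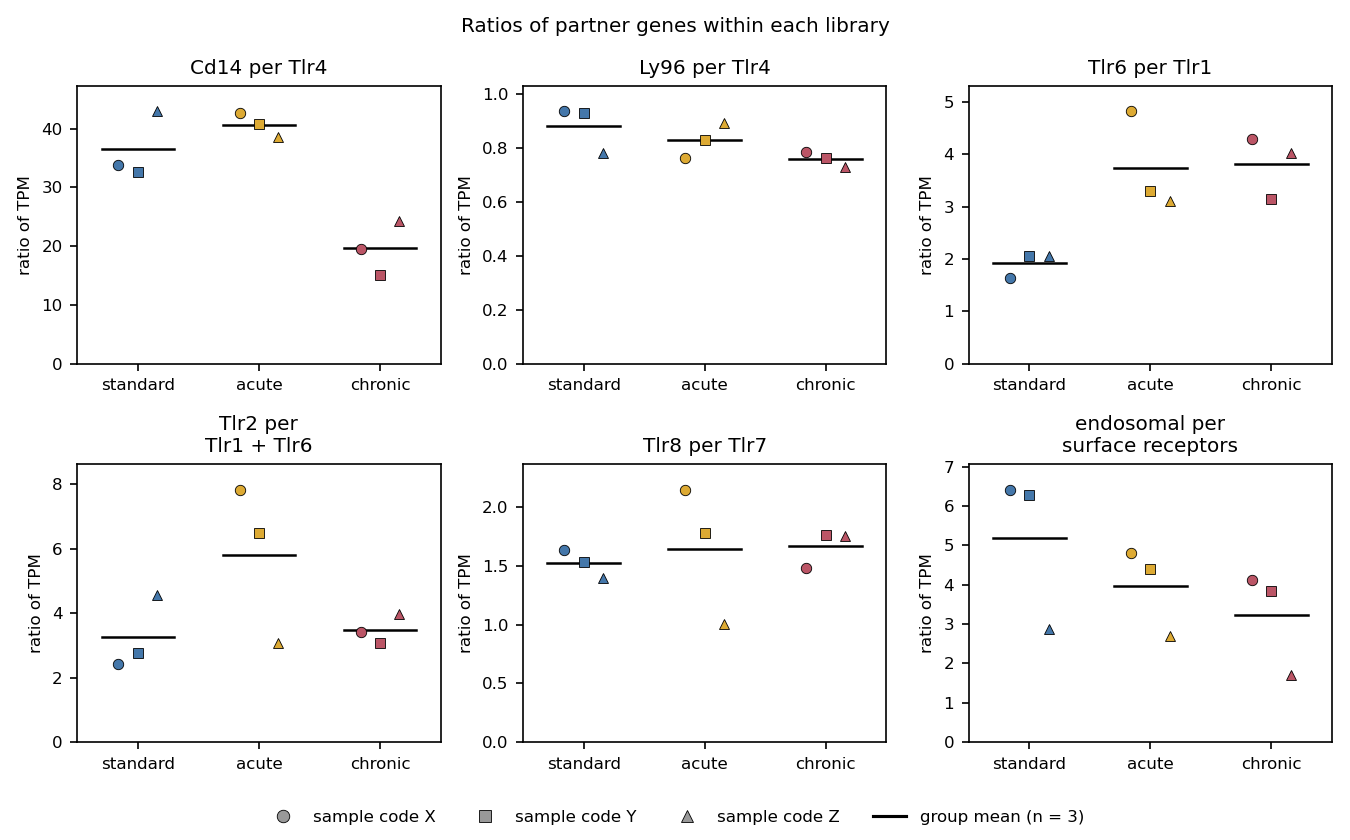
Ratios of TPM between partner genes within each library (vertical axes from 0), 1 point per library with its sample code and the group mean. Cd14 per Tlr4 is at most 24.3 in chronic hypoxia and at least 32.6 elsewhere, and Tlr6 per Tlr1 is at most 2.06 in standard oxygen and at least 3.10 in both hypoxia groups.

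Tlr2 encodes the common subunit of the lipopeptide receptors. It was at 25.9, 25.9 and 61.8 TPM in standard oxygen, at 66.0, 57.4 and 54.0 TPM in acute hypoxia and at 55.5, 51.7 and 80.3 TPM in chronic hypoxia. Standard oxygen was low in codes X and Y, while its library of code Z was at the level of the hypoxia groups, and the groups overlapped. In acute hypoxia the level was 2.55 times that of standard oxygen in code X, 2.21 times in code Y and 0.873 times in code Z. The log2 fold change was 0.75 (SE 0.33, limma adjusted p = 0.740), and without code Z it was 1.22 (limma adjusted p = 0.011). In chronic hypoxia the log2 fold change from standard oxygen was 0.81 (SE 0.36, limma adjusted p = 0.245), higher in 3 of 3 codes. With the code block Tlr2 was called (SE 0.15, limma adjusted p = 0.031). Adding rescaling to the block ended that call (log2 fold change 0.63, limma adjusted p = 0.064). Leaving out the standard library of code Z alone gave 1.16 for acute and 1.21 for chronic hypoxia, both called (limma adjusted p = 0.047 and 0.041). Those fits called 33 and 522 genes over all genes tested, beside 3 and 298 with all libraries. Leaving out any other single library gave no call of Tlr2 against standard oxygen. Chronic and acute hypoxia differed by 0.06 (SE 0.18), a value that turned to -0.10 after rescaling and to -0.20 without code Z.

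The sequence upstream of Tlr2 is shown because Tlr2 was among the genes called with the code block and because the window holds a known kind of site of the pathway. The window is chr3:83841768-83841858 on the minus strand (GRCm38.p6, RefSeq), the part of the 250 bases before the RefSeq start that lies in no annotated exon. Capitals mark a pair of overlapping matches to the NF-kappaB consensus, the site of the transcription factor that Toll-like receptors activate.
Tlr2: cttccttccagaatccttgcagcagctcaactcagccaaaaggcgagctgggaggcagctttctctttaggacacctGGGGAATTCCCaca
Of 32526 windows of this length upstream of mouse genes, 2.26% held an NF-kappaB match on either strand. Several motifs were searched in each window. This share and those below are each for a single motif, not for a match to any of them. The hypoxia response cores ACGTG and GCGTG, each searched on both strands, were absent from this window, and 5.49% and 10% of windows of its length held them. A match is a description of the letters, and no match says nothing about binding elsewhere.

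Tlr6 and Tlr1 encode the partners of TLR2 for diacylated and triacylated lipopeptides. Tlr6 was at 6.64, 6.29 and 9.11 TPM in standard oxygen, at 6.98, 6.80 and 13.3 TPM in acute hypoxia and at 13.2, 12.8 and 16.2 TPM in chronic hypoxia. All chronic libraries lay above all standard ones, and among the acute libraries the one of code Z reached the chronic range. The chronic level was 1.99, 2.03 and 1.77 times the standard one in codes X, Y and Z, a log2 fold change of 0.86 (SE 0.17, limma adjusted p = 0.057). With the code block Tlr6 rose (SE 0.09, limma adjusted p = 0.012), and it was called with the block after rescaling too (limma adjusted p = 0.020). Without a block, leaving out the standard library of code Z was enough for a call (1.00, limma adjusted p = 0.031). That fit called 522 genes over all genes tested, beside 298 with all libraries. Leaving out any other single library gave no call of Tlr6 there. Against acute hypoxia the log2 fold change was 0.64 (SE 0.26, limma adjusted p = 0.227), higher in 3 of 3 codes. It was called with the block (limma adjusted p = 0.047) but not with the block and rescaling (limma adjusted p = 0.102). Acute hypoxia and standard oxygen differed by 0.22 (SE 0.27, limma adjusted p = 1.00).

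Tlr1 was at 4.07, 3.07 and 4.42 TPM in standard oxygen, at 1.45, 2.06 and 4.30 TPM in acute hypoxia and at 3.07, 4.05 and 4.01 TPM in chronic hypoxia. The acute libraries of codes X and Y were the lowest, and the groups overlapped in every comparison. The log2 fold change from standard oxygen was -0.50 in acute and -0.04 in chronic hypoxia (limma adjusted p = 0.900 and 0.925), and limma did not call it. Tlr6 per Tlr1 was 1.63, 2.05 and 2.06 in standard oxygen, 4.82, 3.30 and 3.10 in acute hypoxia and 4.30, 3.15 and 4.02 in chronic hypoxia. Every hypoxia ratio lay above every standard ratio, and the acute and chronic ratios overlapped. Each difference from standard oxygen had an exact permutation p = 0.1, or 0.45 after adjustment over the 18 tests. Of all 75-base stretches in the longest transcript, 11.5% in Tlr1 and 9.44% in Tlr6 also occur in the other gene, so reads from these stretches cannot be assigned with certainty. The other 8 genes had no such stretch shared with another listed gene.

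The window before the inner of the 2 RefSeq starts of Tlr6 is shown since Tlr6 was the gene called in both chronic comparisons with the code block. It is chr5:64959167-64959416 on the minus strand (GRCm38.p6, RefSeq) and lies in an intron of the form that begins further upstream. Capitals mark a pair of overlapping matches, on the opposite strand, to GAAA, any 2 bases and GAAA again, the core of the element through which interferon regulatory factors act.
Tlr6: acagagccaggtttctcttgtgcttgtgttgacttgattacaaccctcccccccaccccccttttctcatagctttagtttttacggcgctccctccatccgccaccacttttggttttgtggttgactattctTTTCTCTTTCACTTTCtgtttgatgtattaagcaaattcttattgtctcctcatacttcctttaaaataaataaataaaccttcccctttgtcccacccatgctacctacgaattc
That core was found on either strand in 2.98% of windows of this length. The window before the outer start of Tlr6 held none of the motifs searched.

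Tlr9, the endosomal receptor for unmethylated CpG DNA, was lower in acute hypoxia than in the other groups in every library. It was at 8.50, 9.22 and 10.5 TPM in standard oxygen, at 5.32, 5.69 and 5.63 TPM in acute hypoxia and at 8.791, 9.940 and 8.996 TPM in chronic hypoxia. The acute libraries lay below all others and the standard and chronic libraries overlapped. The log2 fold change of acute hypoxia against standard oxygen was -0.66 (SE 0.12, unadjusted p = 0.0013), a ratio of means of 0.590, but the limma adjusted p was 0.190, and 0.088 with the code block. Chronic against acute hypoxia gave 0.64 (SE 0.12, limma adjusted p = 0.065), higher in 3 of 3 codes, and with the code block Tlr9 rose (limma adjusted p = 0.024). Chronic hypoxia and standard oxygen differed by -0.02 (SE 0.13), with a sign that turned on leaving out the code Z libraries (0.071).

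Tlr13, a receptor of mice for bacterial ribosomal RNA, was the most abundant of the receptors. It was at 218, 209 and 184 TPM in standard oxygen, at 297, 256 and 193 TPM in acute hypoxia and at 187, 171 and 118 TPM in chronic hypoxia. Every chronic library lay below every acute one, code Z was the lowest of each group, and the standard group overlapped with both others. Chronic against acute hypoxia gave a log2 fold change of -0.65 (SE 0.23, limma adjusted p = 0.186), and within codes the chronic level was 0.631, 0.670 and 0.612 of the acute one. With the code block Tlr13 fell (SE 0.07, limma adjusted p = 0.012). Against standard oxygen the values were 0.27 (SE 0.17) in acute and -0.38 (SE 0.19) in chronic hypoxia, with limma adjusted p of 0.907 and 0.281. In the chronic comparison the code block with rescaling called Tlr13 lower (-0.56, limma adjusted p = 0.034).

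Upstream windows of Tlr9 and Tlr13 are shown as the endosomal receptors called with the code block. They are chr9:106222348-106222597 for Tlr9 and chrX:106143025-106143203 for Tlr13, both on the plus strand (GRCm38.p6, RefSeq). Capitals mark GAGGAAG, a core of sites of the myeloid factor PU.1, in both, and TGACTCA, the AP-1 site, in Tlr9.
Tlr9: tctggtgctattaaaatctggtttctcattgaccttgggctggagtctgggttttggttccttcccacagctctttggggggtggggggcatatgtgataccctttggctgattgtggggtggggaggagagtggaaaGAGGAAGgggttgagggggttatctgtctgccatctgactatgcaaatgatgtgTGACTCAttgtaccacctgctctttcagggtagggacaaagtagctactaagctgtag
Tlr13: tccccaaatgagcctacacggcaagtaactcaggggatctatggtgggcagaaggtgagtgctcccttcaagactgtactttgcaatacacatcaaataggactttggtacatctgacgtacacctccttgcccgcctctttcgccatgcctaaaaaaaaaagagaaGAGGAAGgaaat
GAGGAAG was found on either strand in 10.7% of windows of the length of the Tlr9 one and in 7.26% of windows of the length of the Tlr13 one. TGACTCA was found in 4.45% of windows of the former length. GAGGAAG was also in the window of Tlr1, a surface receptor gene not called with the block, and in 10.4% of windows of that length. The window of Tlr8 held none of the motifs searched. Table entries were used for 6 of the 10 genes, and the windows of Cd14, Ly96, Tlr4 and Tlr7 were not used here. None of the windows examined, of 91 to 250 bases, held ACGTG or GCGTG. At 91 bases 5.49% and 10% of windows hold these cores, and at 250 bases 16.7% and 28.4% do.

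Tlr7 and Tlr8 encode neighbouring receptors for single-stranded RNA on the X chromosome. Tlr7 was at 68.2, 71.1 and 47.3 TPM in standard oxygen, at 70.9, 67.4 and 40.1 TPM in acute hypoxia and at 108, 93.8 and 36.0 TPM in chronic hypoxia. Tlr8 was at 112, 109 and 66.1 TPM in standard oxygen, at 152, 120.1 and 40.4 TPM in acute hypoxia and at 160.1, 166 and 63.3 TPM in chronic hypoxia. In both genes the code Z library was the lowest of every group, and all groups overlapped. Within chronic hypoxia, code Z was at 0.357 of the mean of the other libraries for Tlr7 and at 0.388 for Tlr8. Neither gene was called in any comparison without a block or with the code block. Without code Z, both were called higher in chronic hypoxia against standard oxygen, and Tlr7 against acute hypoxia too (limma, 2 samples a group). In acute hypoxia against standard oxygen, the log2 fold change of Tlr8 was -0.04 with all libraries and 0.29 without code Z.

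The endosomal receptors summed (Tlr7, Tlr8, Tlr9 and Tlr13) were 5.18 ± 2.01 times the surface receptors summed (Tlr1, Tlr2, Tlr4 and Tlr6) in standard oxygen. That ratio was 3.96 ± 1.12 in acute and 3.23 ± 1.32 in chronic hypoxia (SD, n = 3). In 3 of 3 codes it was lower in acute hypoxia than in standard oxygen, and lower in chronic hypoxia than in either. The ranges overlapped in each comparison, with code Z the lowest of every group. The exact permutation p was 0.5 for acute hypoxia and 0.3 for chronic hypoxia against standard oxygen, and 0.5 for chronic against acute hypoxia. After adjustment over the 18 ratio tests these permutation p-values were 0.643, 0.6 and 0.643. The libraries of code Z had 2.39 times the Tlr2 of codes X and Y in standard oxygen, 0.875 times in acute hypoxia and 1.498 times in chronic hypoxia.

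**Figure D4:**
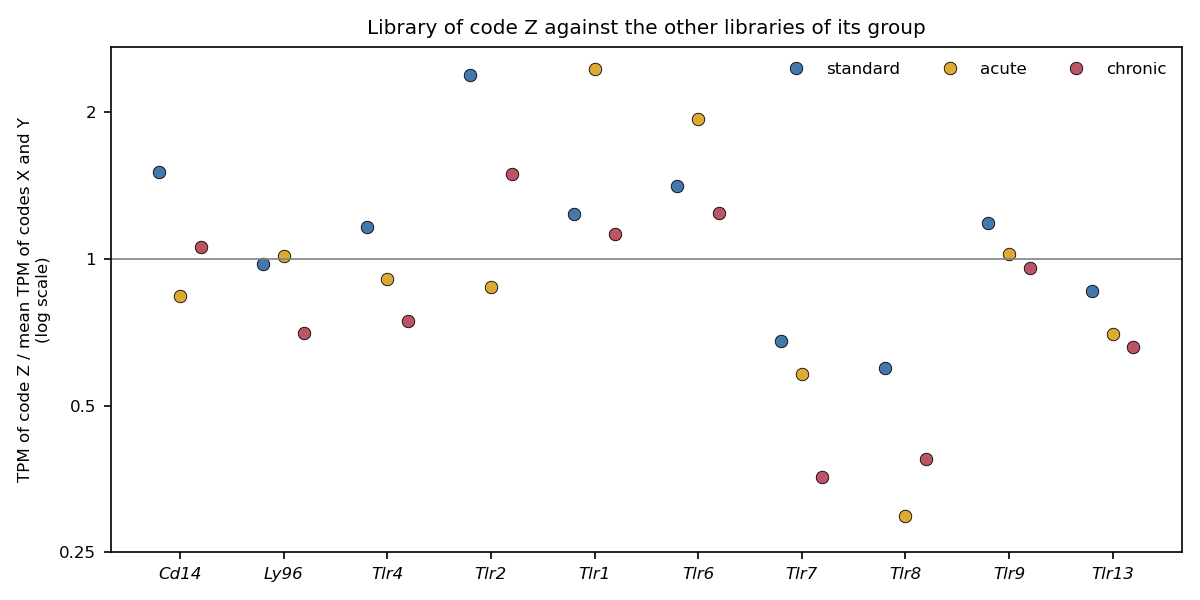
TPM of the code Z library divided by the mean of codes X and Y in the same group (log axis), for each of the 10 genes and 3 groups. Tlr7, Tlr8 and Tlr13 lie below 1 in all groups (0.297 to 0.860), and Tlr1 and Tlr6 lie above 1 in all groups (1.13 to 2.45).

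Without overlap between the groups compared were 3 of 10 genes in acute hypoxia against standard oxygen (Ly96, Tlr4 and Tlr9), where 12.5% of all genes tested did not overlap. In chronic hypoxia against standard oxygen they were 3 (Cd14, Tlr4 and Tlr6), against 29.6% of all genes, and in chronic against acute hypoxia 3 (Cd14, Tlr9 and Tlr13), against 27.8%. Tlr4 was apart from standard oxygen only by the small margins given above.

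For each gene with a mean of at least 5 TPM, the gene most like it over the 9 samples was sought among 8852 genes by Pearson r of log2(TPM + 1). The points share libraries and sample codes, with code Z apart from the others, and r is a description. For Tlr7 it was Spp1, the osteopontin gene (r = 0.990), which was at 32868, 30166 and 22598 TPM in standard oxygen and at 47549, 40387 and 18691.5 TPM in chronic hypoxia. For Tlr6 it was Il13ra1, a subunit of the interleukin-13 receptor (r = 0.991), and for Tlr2 it was Dynll1, a dynein light chain (r = 0.980). For Tlr4 it was Carhsp1 (r = 0.980), for Tlr8 Cttnbp2nl (r = 0.977), for Tlr9 Bcs1l (r = 0.970) and for Cd14 4931406C07Rik (r = 0.965). Tlr13 and Ly96 had lower highest values, with Selenof (r = 0.934) and Pnpla8 (r = 0.931). After the mean of each sample code was subtracted, Spp1 was again first for Tlr7. For every other gene a different one then came first, such as Itga5 for Cd14, Galnt6 for Tlr6 and Ralb for Tlr2.

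Other genes of the pathway were described by lists. Of 6 further family members (Tlr3, Tlr5, Tlr11, Tlr12, and the TLR4-like pair Cd180 and Ly86) only Tlr3 and Cd180 passed the filter, and limma called neither in any comparison, without a block or with the code block alone. In chronic hypoxia against standard oxygen, Cd180 was called lower with the block and rescaling together (-0.40, limma adjusted p = 0.026), and Tlr3 was called higher without the code Z libraries (0.94, limma adjusted p = 0.013). Tlr3, the receptor for double-stranded RNA, was at 3.545, 3.996 and 9.443 TPM in standard oxygen and at 7.68, 8.57 and 5.79 TPM in chronic hypoxia. It was higher in chronic hypoxia in codes X and Y and lower in code Z.

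Among 19 genes of ligand transfer, receptor chaperones and endosomal processing, 0 were called in acute hypoxia against standard oxygen with or without the block. In chronic hypoxia against standard oxygen limma called 1 (Pld3, lower), beside 2.69% of all genes, and with the code block 5 higher and 2 lower, beside 18.4% of all genes. Pld3, an endolysosomal exonuclease that removes single-stranded DNA, was at 398, 403 and 332 TPM in standard oxygen and at 244, 233 and 184 TPM in chronic hypoxia, without overlap. It fell by 0.78 on the log2 scale (SE 0.15, limma adjusted p = 0.049). After rescaling without a block that adjusted p was 0.070. Leaving out any single library of codes X and Y also ended the call of Pld3 without a block. Hsp90b1, the endoplasmic reticulum chaperone that folds most Toll-like receptors, was at 139.5, 136 and 202 TPM in standard oxygen, at 153, 146 and 184 TPM in acute hypoxia and at 276, 264 and 272 TPM in chronic hypoxia. The chronic libraries lay above all others, and with the code block Hsp90b1 rose by 0.79 against standard oxygen and by 0.75 against acute hypoxia (limma adjusted p = 0.024 and 0.013). Of its 75-base stretches, 6.61% also occur in the pseudogene 1810014B01Rik. The median of the list was 0.14 against standard oxygen and 0.19 against acute hypoxia, beside 0.16 and 0.14 over all genes.

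Between chronic and acute hypoxia 1 gene of this list was called without a block, Lbp, beside 0.695% of all genes, and with the block 8 were higher and 2 lower, beside 15.5% of all genes. Lbp, the protein that carries lipopolysaccharide to CD14, was at 32.8, 30.2 and 36.5 TPM in acute hypoxia and at 55.1, 54.7 and 56.3 TPM in chronic hypoxia, without overlap. It rose by 0.73 (SE 0.10, limma adjusted p = 0.049), and after rescaling that adjusted p was 0.054. Leaving out any single library of codes X and Y ended the call without a block.

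The 27 adaptors, kinases and transcription factors had no call in any comparison in limma without a block at the settings above. Rescaling the libraries was enough for a call of Ikbke in chronic against acute hypoxia (limma adjusted p = 0.048), beside 81 of 11077 genes. All 9 samples in 1 fit called Ikbke and Pik3ap1 in chronic hypoxia against standard oxygen, and Ikbke and Nfkb1 against acute hypoxia. Of all 11065 genes that fit called 764 and 415. A pseudocount of 0.1 called Traf6 in chronic hypoxia against standard oxygen, beside 310 of 11067 genes. Leaving out the standard library of code Z called Ikbke and Traf6 there, beside 522 of 11023 genes. Leaving out the acute library of code Z called Ikbke in chronic against acute hypoxia, beside 90 of 11038 genes. With the code block 0 of 27 were called in acute hypoxia, 9 in chronic hypoxia against standard oxygen (6 higher, 3 lower) and 6 against acute hypoxia (4 higher, 2 lower), beside 0.71%, 18.4% and 15.5% of all genes. Without a block, 3, 10 and 9 of the 27 had an unadjusted limma p under 0.05. Over all genes tested, 785 of 10987, 2533 of 11067 and 2305 of 11087 did. Ikbke, the kinase IKK-epsilon, was at 130, 131 and 165 TPM in acute hypoxia and at 231, 250.3 and 286 TPM in chronic hypoxia, and rose by 0.85 with the block (limma adjusted p = 0.0079). Irf7, an interferon regulatory factor, was at 5.11, 6.30 and 14.1 TPM in acute and at 1.84, 1.98 and 2.13 TPM in chronic hypoxia, and fell by 1.56 with the block (limma adjusted p = 0.023). Both were without overlap. The adaptor Myd88 was at 33.2 to 45.7 TPM in all 9 libraries and was not called. Irf7, Ikbke, Irak3, Myd88, Hsp90b1, Tlr3 and Cd180 share exonic positions with genes on the opposite strand, and the strand setting of the counting is not given in the sources used here.

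Of 17 negative regulators, 15 were tested, and 1 was called without a block, Irak3 in chronic against acute hypoxia, beside 0.695% of all genes. Irak3 encodes IRAK-M, which damps signalling from MyD88. It was at 65.0, 61.3 and 95.2 TPM in standard oxygen, at 56.1, 50.4 and 70.0 TPM in acute hypoxia and at 134, 127 and 122 TPM in chronic hypoxia. The chronic libraries lay above all others. It rose by 1.12 against acute hypoxia (SE 0.14, limma adjusted p = 0.043), and against standard oxygen by 0.81 with the code block (limma adjusted p = 0.033, and 0.067 with rescaling added). The call without a block was lost on leaving out any single library of codes X and Y. It was also lost with no filter on low values or without the intensity trend. With the block, 0, 3 and 6 of the 15 were called in the 3 comparisons, beside 0.71%, 18.4% and 15.5% of all genes.

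The list of 22 genes that Toll-like receptor ligands raise in macrophages had calls in both directions with the code block. In acute hypoxia 16 were tested, with 0 called without a block, beside 0.0273% of all genes. An unadjusted limma p under 0.05 was found for 3 of them, and for 785 of 10987 genes tested. With the block 3 were called, beside 0.71% of all genes: Ccl3 and Ccl4 lower and Nos2 higher. Ccl3, a chemokine, was at 649.6, 594 and 1015 TPM in standard oxygen, at 196, 167 and 392 TPM in acute hypoxia and at 317, 267 and 233 TPM in chronic hypoxia. Both hypoxia groups lay below standard oxygen without overlap. With the block it fell by 1.64 in acute hypoxia (limma adjusted p = 0.012), and without a block by 1.43 in chronic hypoxia (limma adjusted p = 0.037). Nos2, the inducible nitric oxide synthase, was at 2.53, 2.08 and 133 TPM in standard oxygen, at 35.9, 41.8 and 800.2 TPM in acute hypoxia and at 39.4, 33.4 and 195 TPM in chronic hypoxia. Code Z was far above the others in each group, and all groups overlapped. With the block Nos2 rose by 3.25 in acute hypoxia (limma adjusted p = 0.017). Ccl4 fell by 1.47 in acute hypoxia with the block (limma adjusted p = 0.030).

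In chronic hypoxia against standard oxygen, 14 of these response genes were tested and 2 were called without a block, Ccl3 and Il1rn, beside 2.69% of all genes. Il1rn, the interleukin-1 receptor antagonist, was at 185, 167 and 184 TPM in standard oxygen, at 178, 159 and 269.5 TPM in acute hypoxia and at 115, 111 and 102 TPM in chronic hypoxia. It fell by 0.70 (SE 0.10, limma adjusted p = 0.027), and no chronic library overlapped with the others. Leaving out any single library of codes X and Y ended the calls of both Ccl3 and Il1rn without a block. With the block, Saa3, an acute phase protein, fell by 1.33 (limma adjusted p = 0.025), from 31.2, 32.8 and 145 TPM to 12.5, 18.5 and 37.1 TPM. Ptgs2, encoding cyclooxygenase-2, rose by 1.03 with the block (limma adjusted p = 0.036) but stayed at 4.81 TPM or less in chronic hypoxia, and rescaling added to the block ended that call (limma adjusted p = 0.061). The median of the tested genes was -0.33, beside 0.16 over all genes, and 0.04 in the 12 genes tested without the code Z libraries. Without these libraries, limma called 4, 10 and 7 of 12 tested response genes in the 3 comparisons, 0, 6 and 4 of 15 negative regulators, 0, 8 and 6 of 27 signalling genes, 0, 7 and 9 of 19 genes of ligand transfer and processing, and 0, 1 and 0 of 2 further family members. The shares of all genes called there were 2.95%, 21.1% and 16.3%. In chronic against acute hypoxia with all libraries, 14 response genes were tested and 0 were called without a block, beside 0.695% of all genes. With the block 1 was called higher and 3 lower, Il1rn and Saa3 among the latter, beside 15.5% of all genes.

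**Figure D5:**
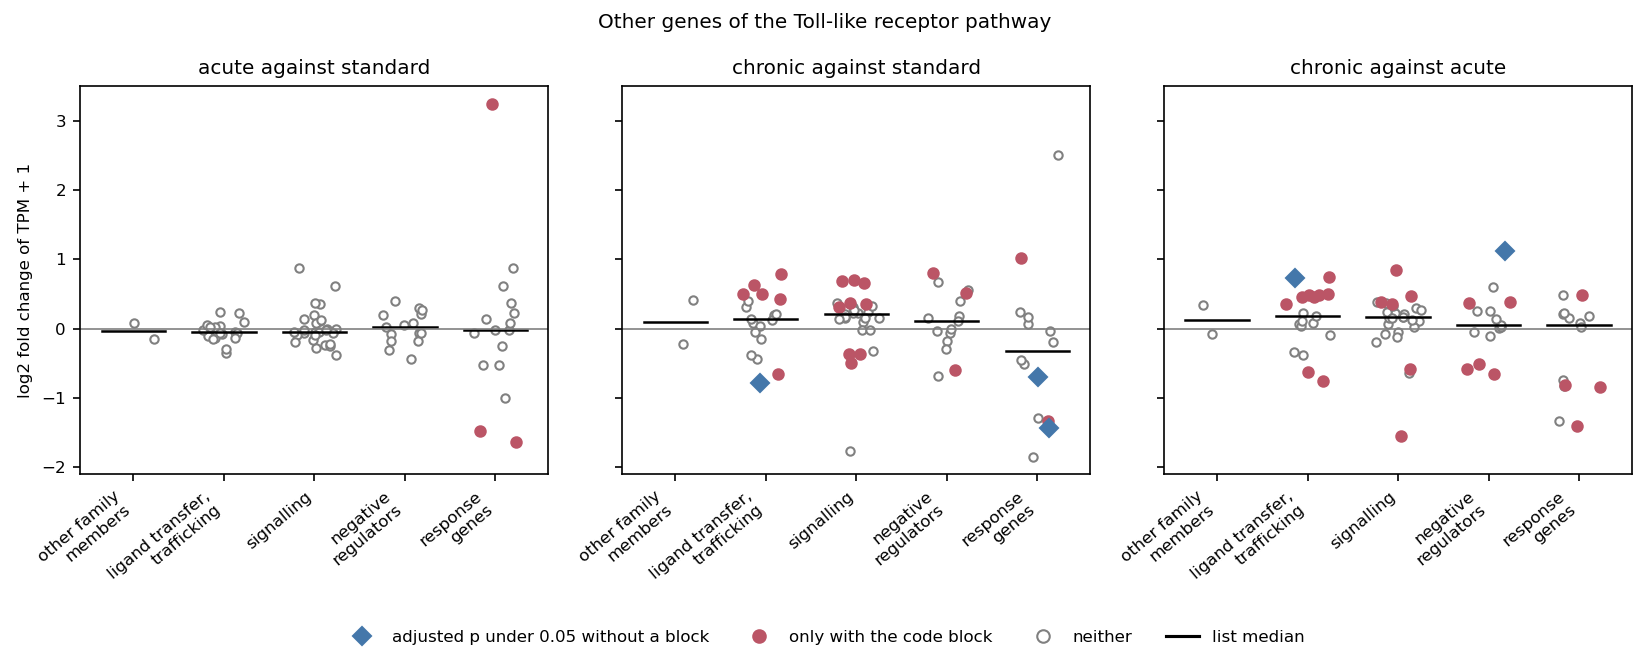
Log2 fold changes (vertical axis, log2 of TPM + 1) of the tested genes of the 5 pathway lists in the 3 comparisons, 1 point per gene, with the list median as a line. Diamonds passed limma without a block, filled circles only with the code block. Nos2 at 3.25 in acute and 2.51 in chronic hypoxia is the highest point against standard oxygen.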

How the data were processed

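RNA from 9 cultures of mouse primary macrophages was sequenced as paired ends of 75 bases, per the labels' protocols. The authors deposited the values as TPM, in 3 tables of 6 columns, 1 for each pair of groups. Per the submitters' processing notes, FastQC, STAR and featureCounts were used with GRCm38. The annotation, the strand setting and the step from counts to TPM are not given in the sources used here. Each column summed to 1000000 and each sample had identical values in both tables that held it. TPM keeps no depth, so no counting error is attached to a value and no count test was run.

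Samples were grouped by their treatment labels. The members and gene lists were chosen with earlier results of these data known. Each comparison used its 6 samples and the R package limma (version 3.58.1, R 4.3.3) with a two-sided moderated test and an intensity trend on log2(TPM + 1). Genes needed a mean of 1 TPM or more, with Benjamini-Hochberg adjustment over all of them and a threshold of 0.05. The fit was tested on simulated data. The p-values measure the spread between 3 samples a group.

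Pairing came from digits in the sample descriptions. Code X is replicate 1 of every group, code Y is replicate 3 of standard oxygen and 2 of both hypoxia groups, and code Z is replicate 2 of standard oxygen and 3 of both hypoxia groups. Over 11065 genes, deviations from the group means of samples with the same code correlated with r of at least 0.38 in every pair (means 0.44, 0.45 and 0.54), while pairs by title number had mean r of -0.12, -0.14 and 0.54. Deviations within a group cancel out and code Z stood apart, so this check bears mainly on code Z. Pairs of code X with code Y across groups were not examined, and the pairing within each of these codes rests on the digits. The fit with the code as a block is given beside a result where it changes the call.

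All 10 members are named. A pathway gene is named if called without a block, or if among the 3 highest or 3 lowest of the listed genes called with the code block in a comparison. Myd88, Tlr3 and Cd180 were added after their values were seen. Also outside this rule, Pik3ap1, Nfkb1 and Traf6 are named for calls under other settings. Tlr5, Tlr11, Tlr12 and Ly86 are named as family members that did not pass the filter. Genes of the other lists called only under such settings are not all named. The most alike genes were sought among genes with a mean of at least 5 TPM. Promoter windows and starts came from RefSeq (GRCm38.p6), trimmed of exons annotated in the GENCODE release M21 for GRCm38. The alternatives were other pseudocounts, filters, scaling, blocks and sample sets, and leaving out each library. Ratios were tested with exact permutation tests (SciPy 1.17.1). A gene of a cell type marker list is not reported here and was left out of that list's sums.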

Additional observations from a re-analysis of the deposited data

Results flagged for a closer look

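Cd14 differed between the hypoxia groups in its change from standard oxygen. The log2 fold change was 0.41 in acute hypoxia and -0.47 in chronic hypoxia, and their difference, which is the chronic against acute comparison, was -0.883 (SE 0.12, limma adjusted p = 0.049). Both changes are measured from the same 3 standard oxygen libraries, which cancel in the difference. In code Z, Cd14 was lower than in standard oxygen in both hypoxia groups, at 0.900 of the standard level in acute and 0.571 in chronic hypoxia.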

How the results depend on the processing

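With 3 libraries a group, unknown depth and 1 library a group standing apart, calls of single genes depended on how the sample code was handled. Pseudocounts of 0.1 or 5 and a filter at a mean of 5 TPM left the count of members called as it was in all 3 comparisons. Counts are given for acute hypoxia against standard oxygen, chronic hypoxia against standard oxygen and chronic against acute hypoxia, in this order, where all 3 are listed. The cause of these shifts was not tested.

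Over all genes tested, limma called 3, 298 and 77. The code replicate block gave 78, 2039 and 1724, the block with rescaling 54, 1270 and 1084, and the block with all 9 samples in 1 fit 204, 2909 and 2450. The title replicate block gave 0 (579 genes at an unadjusted p under 0.05), 1 and 1724, since title and code pair the chronic and acute samples alike. All 9 samples in 1 fit without a block gave 25, 764 and 415. Leaving out the code Z libraries gave 319, 2300 and 1788. The fit without trend called 5, 166 and 25, rescaling called 21 in the first comparison, and no filter on low values called 120 and 7 in the last pair. Leaving out 1 library at a time gave 0 to 33, 1 to 522 and 1 to 308.

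Of the 10 members, limma called 0, 0 and 1. In acute hypoxia against standard oxygen, the code block with all 9 samples called 1 (Tlr9), leaving out the code Z libraries called 2, and leaving out 1 library called 0 to 1. In chronic hypoxia against standard oxygen the code replicate block called 2, the block with rescaling 3, the block with all 9 samples 3 (Tlr4, Tlr6 and Tlr13), leaving out code Z 6, and leaving out 1 library 0 to 2. In chronic against acute hypoxia, no filter and no trend called 0 each, all 9 samples 2, the title and the code replicate block 4 each, the block with rescaling 3, the block with all 9 samples 4, leaving out code Z 5, and leaving out 1 library 0 to 1. The code block changed no other call of a member.

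Some log2 fold changes changed sign, none of them called in the fit reported. In acute hypoxia against standard oxygen, Tlr8 was 0.29 without code Z. In chronic hypoxia against standard oxygen, Tlr9 was 0.071 without code Z. In chronic against acute hypoxia, rescaling with or without the code block gave -0.081 for Ly96 and -0.097 for Tlr2, and leaving out code Z gave -0.20 for Tlr2, -0.12 for the log2 ratio of Tlr6 per Tlr1 and -0.27 for that of Tlr8 per Tlr7. Leaving out 1 library at a time, the acute against standard values ranged from -0.066 to 0.37 for Tlr6, from -0.27 to 0.17 for Tlr7 and from -0.41 to 0.53 for Tlr8. The chronic against standard values ranged from -0.16 to 0.064 for Tlr1, from -0.071 to 0.71 for Tlr7 and from -0.083 to 0.054 for Tlr9. The chronic against acute values ranged from -0.044 to 0.23 for Ly96, from -0.13 to 0.18 for Tlr2 and from -0.18 to 0.84 for Tlr8.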

Other observations

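Tlr5, the receptor for flagellin, did not pass the filter on low values and was not tested. It was listed at 0.07, 0.07 and 0 TPM in standard oxygen, at 0.06, 0.05 and 0.02 TPM in acute hypoxia and at 0.66, 1.09 and 0.16 TPM in chronic hypoxia (codes X, Y and Z). All chronic libraries lay above all others. Tlr11 was listed at 0 in every library, and Tlr12 and Ly86 stayed at or below 0.05 and 0.41 TPM.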
